A study of Homo sapiens with 18 samples.

Results

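The genes described here encode the dual-specificity MAP kinase phosphatases, named as 10 genes: DUSP1, DUSP2, DUSP4, DUSP5, DUSP6, DUSP7, DUSP8, DUSP9, DUSP10 and DUSP16. They were chosen by name and class, with earlier results of these data known. The numbers of members called are therefore not independent of these data. Values could be given for 9 of them, out of 23925 genes with a count in the series, and all 9 passed the filter on low counts that left 15519 genes. None of the 6 annotated transcripts of DUSP16 was matched, and this gene was not analysed here. DUSP8 rested on 1 of its 3 annotated transcripts. A second Ensembl entry of the same name exists, and the reads of near-identical copies could have been split between them, so its values are uncertain.

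Dual-specificity MAP kinase phosphatases remove the phosphate from both the threonine and the tyrosine of the activation loop of a MAP kinase and so switch the kinase off. Many of their genes are themselves induced by MAP kinase or cAMP signaling, which makes them negative feedback regulators. They fall into 3 classes. The nuclear inducible phosphatases DUSP1, DUSP2, DUSP4 and DUSP5 are encoded by early response genes, the cytoplasmic phosphatases DUSP6, DUSP7 and DUSP9 prefer ERK, and DUSP8, DUSP10 and DUSP16 prefer the stress-activated kinases JNK and p38.

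The RNA came from HEK293 cells, a human embryonic kidney line, and from its CRISPR-Cas9 derivatives without β-arrestin1/2 (arrestin KO) or without Gαs (Gαs KO). All cells, wildtype included, had been transfected with a receptor plasmid and serum starved overnight. At 48 h after transfection they received vehicle (basal) or 1 μM isoproterenol, a β-adrenergic agonist, for 1 h. Each of the 6 groups had 3 biological replicates, and each genotype was a single cell line, so the knockout cannot be told apart from other differences between the lines. Whether a KO line is 1 clone is not given in the sources used here.

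The 18 libraries held between 17908597 and 25019834 counts. At basal, GNAS, which encodes Gαs, had 66.0 ± 5.04 CPM (mean ± SD, n = 3; counts scaled to 1000000 per library) in Gαs KO cells against 1317 ± 379 in wildtype. ARRB2 (β-arrestin2) had 98.9 ± 28.6 CPM in wildtype cells and 20.8 ± 2.55 in arrestin KO cells, whereas ARRB1 (β-arrestin1) had 49.6 ± 14.0 and 41.0 ± 2.87. Wildtype basal replicate 1 stood apart, with a count-weighted GC content of 52.5% against 49.2 to 49.6% in the other wildtype basal libraries. Fits without it are given beside several members, but not for every value. The HEK293 markers PAX2, EYA1, NEFL, NEFM, VIM and LIN28B had counts in every group. Of 9 markers of fibroblasts, leukocytes, hepatocytes and keratinocytes, 6 were under the filter (DCN, PTPRC, ALB, APOA1, KRT5 and KRT14), and the 7 other than COL1A1 and COL3A1 summed to between 0.524 and 2.01 CPM in any library.

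Promoter sequence is shown first because it can be searched for the cAMP response element (CRE), the site bound by CREB and related factors that carry cAMP signals to genes. RefSeq windows (GRCh38.p14) were at hand for 8 of the 10 genes, 7 of them with values; DUSP4 and DUSP5 were not searched. The 250 bases before the start were searched on both strands for the CRE (TGACGTCA), its core (TGACG), AP-1 (TGANTCA) and the CArG box. Among 35116 human promoter windows of this length, 1.65% held the CRE, 21.2% the core, 6.57% the AP-1 motif and 1.16% the CArG box. A CRE also counts as a core on each strand. The CRE was found in DUSP1, at positions -125 to -118 from the start, and in DUSP8, at -118 to -111 and at -74 to -67. DUSP1 held further cores at -172 to -168 and, on the opposite strand, at -111 to -107. None of the motifs was in the windows of DUSP2, DUSP6, DUSP7, DUSP9, DUSP10 or DUSP16. The sequences of DUSP1, DUSP8 and DUSP2 are printed 5′ to 3′ in the direction of the gene and end with the base before the start, with motif matches in capitals.
DUSP1 chr5:172771196-172771445, minus strand: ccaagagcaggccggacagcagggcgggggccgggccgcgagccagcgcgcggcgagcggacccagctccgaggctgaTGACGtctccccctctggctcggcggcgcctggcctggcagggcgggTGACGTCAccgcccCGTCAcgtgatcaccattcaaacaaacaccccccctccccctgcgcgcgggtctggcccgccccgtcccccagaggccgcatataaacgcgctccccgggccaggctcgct
DUSP8 chr11:1572272-1572521, minus strand: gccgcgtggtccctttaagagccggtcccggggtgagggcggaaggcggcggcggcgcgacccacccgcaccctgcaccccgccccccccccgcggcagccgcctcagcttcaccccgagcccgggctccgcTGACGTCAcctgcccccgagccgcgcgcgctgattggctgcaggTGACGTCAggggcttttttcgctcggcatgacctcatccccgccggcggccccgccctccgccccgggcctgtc
DUSP2 chr2:96145441-96145690, minus strand: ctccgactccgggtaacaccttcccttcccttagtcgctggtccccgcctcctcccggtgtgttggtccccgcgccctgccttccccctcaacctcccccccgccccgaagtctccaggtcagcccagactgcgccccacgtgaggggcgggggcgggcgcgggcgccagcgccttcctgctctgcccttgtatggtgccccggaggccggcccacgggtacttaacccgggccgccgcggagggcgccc
A match to these letters is a description of the window and not evidence of binding.

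In wildtype cells, isoproterenol raised DUSP1 strongly and DUSP5 moderately, and the other 7 phosphatases did not pass the test. Of the 9 tested, 2 were called higher and 0 lower, beside 0.412% of all tested genes called higher in this comparison. For 5 members the groups had no overlap, all of them higher with isoproterenol (DUSP1, DUSP4, DUSP5, DUSP6 and DUSP10), against 4.85% of all tested genes. Genes were called at a Benjamini-Hochberg adjusted p under 0.05 over all tested genes in edgeR's quasi-likelihood test. In bulk RNA, more transcript per cell and more responding cells cannot be told apart.

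DUSP1 (ENSG00000120129, chromosome 5 from 172768090 to 172771195, minus strand, GRCh38) encodes a nuclear phosphatase that acts on p38, JNK and ERK. Its wildtype basal libraries had 100.1, 69.7 and 85.5 CPM, and the isoproterenol libraries had 426, 488 and 546 CPM. The lowest stimulated library stood more than 4-fold above the highest basal one. The log2 fold change was 2.52 (standard error 0.11, adjusted p = 1.5e-09), a 5.72-fold rise. The gain of 402 CPM (standard error 35.5) ranked 2 among the 64 genes called higher, while the fold ranked 7.

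In arrestin KO cells DUSP1 had 105.5, 110.3 and 116.9 CPM at basal and 1243, 1347 and 1323 CPM with isoproterenol. The log2 fold change was 3.56 (standard error 0.12, adjusted p = 1.3e-11), an 11.8-fold rise. Its gain of 1193 CPM (standard error 31.5) again ranked 2, here among 148 genes called higher, and its fold ranked 7. In Gαs KO cells the libraries had 65.6, 69.6 and 67.4 CPM at basal and 65.7, 66.4 and 69.6 CPM with isoproterenol. These groups overlapped, and the log2 fold change of -0.01 had a 95% confidence interval from -0.24 to 0.23.

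**Figure D1:**
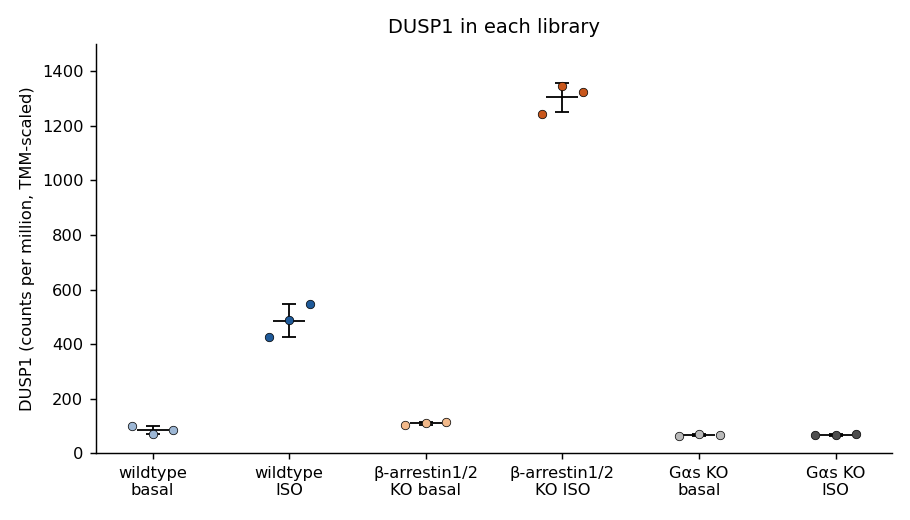
DUSP1 in CPM (vertical axis, from 0) for each of the 18 libraries by group (horizontal axis; ISO, isoproterenol), with the group mean as a horizontal bar and 1 SD as the error bar (n = 3). The wildtype ISO libraries sit between 426 and 546, the arrestin KO ISO libraries between 1243 and 1347, and the Gαs KO ISO libraries at the level of their own basal libraries.

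The DUSP1 response itself differed between the lines. It was larger in arrestin KO than in wildtype cells by a log2 difference of 1.04 (95% confidence interval 0.72 to 1.36, adjusted p = 0.0057), and smaller in Gαs KO cells by -2.52 (interval -2.85 to -2.19, adjusted p = 1.8e-07). Both interactions use the same wildtype libraries. DUSP1 was the one member called in either difference, beside 0.168% and 0.161% of all tested genes. Without wildtype basal replicate 1 the differences were 0.91 (adjusted p = 0.00054) and -2.65 (adjusted p = 1.9e-09). Fitted with the 4 groups of the comparison alone, the first had an adjusted p of 0.085.

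DUSP5 (ENSG00000138166, chromosome 10 from 110497838 to 110511544, plus strand) encodes a nuclear phosphatase that acts on ERK. In wildtype cells it had 14.5, 11.5 and 12.4 CPM at basal and 26.2, 20.7 and 20.1 CPM with isoproterenol. The log2 fold change was 0.80 (standard error 0.15, adjusted p = 0.017). In arrestin KO cells the libraries went from 10.6, 11.3 and 13.1 CPM to 32.8, 29.7 and 31.8 CPM, without overlap, a log2 fold change of 1.43 (adjusted p = 2.7e-05). Gαs KO cells had 5.76, 4.11 and 3.85 CPM at basal and 5.98, 5.27 and 6.30 with isoproterenol, which overlapped (log2 fold change 0.36, interval 0.01 to 0.70, unadjusted p = 0.043, adjusted p = 1). The wildtype call was lost without wildtype basal replicate 2 or 3 or wildtype isoproterenol replicate 1, with log2 fold changes between 0.67 and 0.90 over all single omissions, and in the fit of wildtype libraries alone (0.80, adjusted p = 0.78). The response differences were 0.63 for arrestin KO (interval 0.18 to 1.07, adjusted p = 0.55) and -0.45 for Gαs KO (interval -0.91 to 0.02, adjusted p = 0.89), and neither passed the test.

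In arrestin KO cells all 4 nuclear inducible phosphatases, DUSP6 and DUSP10 were called higher with isoproterenol. That was 6 of 9 members, with 0 lower, beside 0.954% of all tested genes called higher. Leaving out any 1 of the 6 libraries left 4 of these calls (DUSP1, DUSP2, DUSP4 and DUSP5), or 3 without arrestin KO basal replicate 1, where DUSP2 was lost as well. The same 6 members were higher with isoproterenol without overlap between the groups, against 15.4% of all tested genes, and DUSP9 was lower without overlap, against 14.4%. Their folds ran from 1.53 for DUSP10 to 11.8 for DUSP1. The median log2 fold change of the 9 members was 1.08, against -0.01 over all tested genes. In wildtype cells it was 0.43 and in Gαs KO cells 0.01. A larger number of calls than in wildtype cells is not a test of a larger response. With all libraries, DUSP1 alone was called in the response difference between arrestin KO and wildtype cells. Without wildtype basal replicate 1, DUSP1, DUSP4, DUSP5 and DUSP10 were called in the wildtype response. The arrestin KO libraries also differed in the share of mitochondrial counts, at most 2.66% at basal and from 2.97 to 3.32% with isoproterenol, and in count-weighted GC content, 49.8 to 50.1% and 49.3 to 49.4%, both without overlap. With GC and length offsets 5 members were called (DUSP10 was not, adjusted p = 0.068), and the part of the mitochondrial share was not tested.

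DUSP4 (ENSG00000120875, chromosome 8 from 29333064 to 29350668, minus strand) encodes a nuclear phosphatase of ERK and JNK. Wildtype libraries had 24.3, 20.3 and 24.96 CPM at basal and 32.0, 29.7 and 32.4 CPM with isoproterenol. These did not overlap, but the log2 fold change of 0.43 (standard error 0.10) had an adjusted p of 0.1. In arrestin KO cells DUSP4 went from 25.5, 30.2 and 27.9 to 67.2, 54.9 and 54.1 CPM, a log2 fold change of 1.08 (adjusted p = 7.8e-06). In Gαs KO cells it stayed between 20.6 and 22.2 CPM in all 6 libraries, with a log2 fold change of 0.05 (interval -0.17 to 0.27). Without wildtype basal replicate 1, DUSP4 was called in wildtype cells (0.47, adjusted p = 0.037), and so was its larger response in arrestin KO cells (difference 0.60, adjusted p = 0.017, against 0.64 and 0.13 with all libraries). DESeq2's Wald test also called that difference (0.64, adjusted p = 0.0076). The difference for Gαs KO was -0.38 (interval -0.69 to -0.07, adjusted p = 0.89).

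DUSP2 (ENSG00000158050, chromosome 2 from 96143166 to 96145440, minus strand), a nuclear phosphatase best known from activated lymphocytes, was low in all groups. Wildtype libraries had 2.61, 0.932 and 0.877 CPM at basal and 0.851, 2.22 and 1.69 with isoproterenol, which overlapped (log2 fold change 0.10, interval -0.79 to 1.00). The log2 fold change was 0.81 (adjusted p = 0.38) without wildtype basal replicate 1, the library with 2.61 CPM. arrestin KO libraries had 0.658, 0.992 and 1.71 CPM at basal and 5.42, 6.40 and 5.46 with isoproterenol. That was between 12 and 31 counts at basal and between 98 and 121 with isoproterenol, a log2 fold change of 2.36 (standard error 0.42, adjusted p = 0.006). The call was lost without arrestin KO basal replicate 1, with log2 fold changes between 2.10 and 2.78 over all single omissions. Gαs KO cells had 2.39, 2.69 and 1.93 CPM at basal and 2.05, 2.25 and 1.90 with isoproterenol (log2 fold change -0.17, interval -1.03 to 0.68). The difference between the arrestin KO and wildtype responses was 2.26 with a wide interval, 1.00 to 3.51, and did not pass the test (adjusted p = 0.25), although DESeq2's Wald test called it (2.27, adjusted p = 0.026). This difference was 1.55 (adjusted p = 0.069) without wildtype basal replicate 1, and that between Gαs KO and wildtype was -0.98 in place of -0.28 (adjusted p = 0.64 and 0.92).

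Of the cytoplasmic ERK-specific phosphatases, DUSP6 alone was called, in arrestin KO cells and at very low counts. DUSP7 and DUSP9 were not called with isoproterenol in any line. DUSP6 (ENSG00000139318, chromosome 12 from 89347232 to 89353271, minus strand) is a feedback phosphatase of ERK. It had 0.816, 1.34 and 1.17 CPM in wildtype basal libraries and 2.50, 2.38 and 1.69 CPM in the isoproterenol libraries, without overlap (log2 fold change 0.98, adjusted p = 0.2). In arrestin KO cells it had 0.987, 1.03 and 0.829 CPM at basal and 2.46, 2.54 and 2.34 CPM with isoproterenol. This log2 fold change of 1.36 passed the test (adjusted p = 0.016), but rested on 15 to 25 counts at basal and 42 to 49 with isoproterenol, and the call was lost when any 1 of the 6 libraries was left out. Gαs KO cells had 1.56, 1.81 and 1.09 CPM at basal and 2.15, 1.84 and 1.54 with isoproterenol, which overlapped (log2 fold change 0.31, interval -0.25 to 0.87). Its response differences from wildtype were 0.37 for arrestin KO (interval -0.44 to 1.19) and -0.67 for Gαs KO (interval -1.47 to 0.13). Without wildtype basal replicate 1 they were 0.55 and -0.48, and the wildtype log2 fold change was 0.80. None of these was called.

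DUSP7 (ENSG00000164086, chromosome 3 from 52048919 to 52056550, minus strand), a cytoplasmic phosphatase of ERK, varied little. It lay between 28.4 and 35.4 CPM in all 18 libraries. Its log2 fold changes with isoproterenol were -0.04 in wildtype (interval -0.23 to 0.14), 0.00 in arrestin KO (-0.19 to 0.19) and 0.01 in Gαs KO cells (-0.18 to 0.19). None of its 9 comparisons was called.

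DUSP9 (ENSG00000130829, chromosome X from 153642492 to 153651326, plus strand), another cytoplasmic phosphatase of ERK, differed between the lines. Wildtype libraries had 122, 61.4 and 79.3 CPM at basal and 72.2, 76.5 and 85.3 CPM with isoproterenol. arrestin KO libraries had 39.1, 35.5 and 40.4 CPM at basal and 32.9, 34.3 and 34.9 CPM with isoproterenol, lower without overlap, but the log2 fold change of -0.17 (interval -0.55 to 0.21) had an adjusted p of 0.84. Gαs KO libraries had 17.5, 19.9 and 16.9 CPM at basal and 16.8, 14.7 and 18.7 CPM with isoproterenol. The 3 lines did not overlap, and wildtype was highest and Gαs KO lowest. At basal the log2 difference from wildtype was -1.20 in arrestin KO cells (standard error 0.18, adjusted p = 8.5e-05) and -2.28 in Gαs KO cells (standard error 0.19, adjusted p = 1.6e-07). Without wildtype basal replicate 1, the library with 122 CPM, these were -0.87 and -1.96, both still called. The response did not differ detectably between lines (differences of 0.00 with an interval from -0.52 to 0.52 for arrestin KO and 0.05 with an interval from -0.49 to 0.59 for Gαs KO). The wildtype response without that library turned from -0.17 to 0.15 (adjusted p = 0.67 and 0.58), and the response differences were -0.32 and -0.26 (adjusted p = 0.19 and 0.69). Among the isoproterenol libraries the differences from wildtype were -1.20 (adjusted p = 1e-04) and -2.22 (adjusted p = 2.1e-07).

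Of the phosphatases of JNK and p38, DUSP10 (ENSG00000143507, chromosome 1 from 221701424 to 221742176, minus strand) had 5.71, 4.72 and 4.21 CPM in wildtype basal and 6.53, 7.73 and 7.09 CPM in wildtype isoproterenol libraries, without overlap (log2 fold change 0.54, adjusted p = 0.15). Without wildtype basal replicate 1 this was 0.67 and was called (adjusted p = 0.021). arrestin KO cells had 6.41, 6.12 and 5.58 CPM at basal and 9.13, 8.88 and 9.70 CPM with isoproterenol (0.61, adjusted p = 0.033). The latter call held in 5 of 10 other settings and was lost when any 1 of the 6 libraries was left out, with log2 fold changes between 0.55 and 0.66. In Gαs KO cells the libraries had 7.76, 6.76 and 6.70 CPM at basal and 7.06, 6.65 and 6.65 CPM with isoproterenol (log2 fold change -0.06, interval -0.34 to 0.23). The response differences from wildtype were 0.07 for arrestin KO (interval -0.34 to 0.48) and -0.60 for Gαs KO (interval -1.01 to -0.19, adjusted p = 0.73), and neither was called.

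DUSP8 (ENSG00000184545, chromosome 11 from 1554044 to 1571920, minus strand) varied widely among replicates. Wildtype libraries had 8.22, 4.08 and 2.75 CPM at basal and 5.56, 2.22 and 3.66 with isoproterenol, and arrestin KO libraries had 4.66, 7.57 and 5.30 and then 3.51, 6.45 and 3.85. Gαs KO libraries had 2.44, 2.06 and 2.93 CPM at basal and 2.66, 3.02 and 7.90 with isoproterenol, so that a single library set the higher mean. The basal and isoproterenol libraries overlapped in every line. The log2 fold changes were -0.40 (interval -1.37 to 0.57), -0.35 (-1.30 to 0.60) and 0.86 (-0.12 to 1.84). The wildtype value turned to 0.16 (adjusted p = 0.92) without wildtype basal replicate 1, the library with 8.22 CPM. The response differences from wildtype were 0.05 for arrestin KO (interval -1.30 to 1.40) and 1.26 for Gαs KO (interval -0.12 to 2.64). Without that library they were -0.51 and 0.70, and none was called. DUSP8 and DUSP1 are the members with a CRE in the windows searched. Of those with none of the motifs there, DUSP2, DUSP6 and DUSP10 were called in arrestin KO cells, and DUSP7 and DUSP9 were not. DUSP4 and DUSP5, also called in these cells, were not searched. A link between motif and response was not tested.

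**Figure D2:**
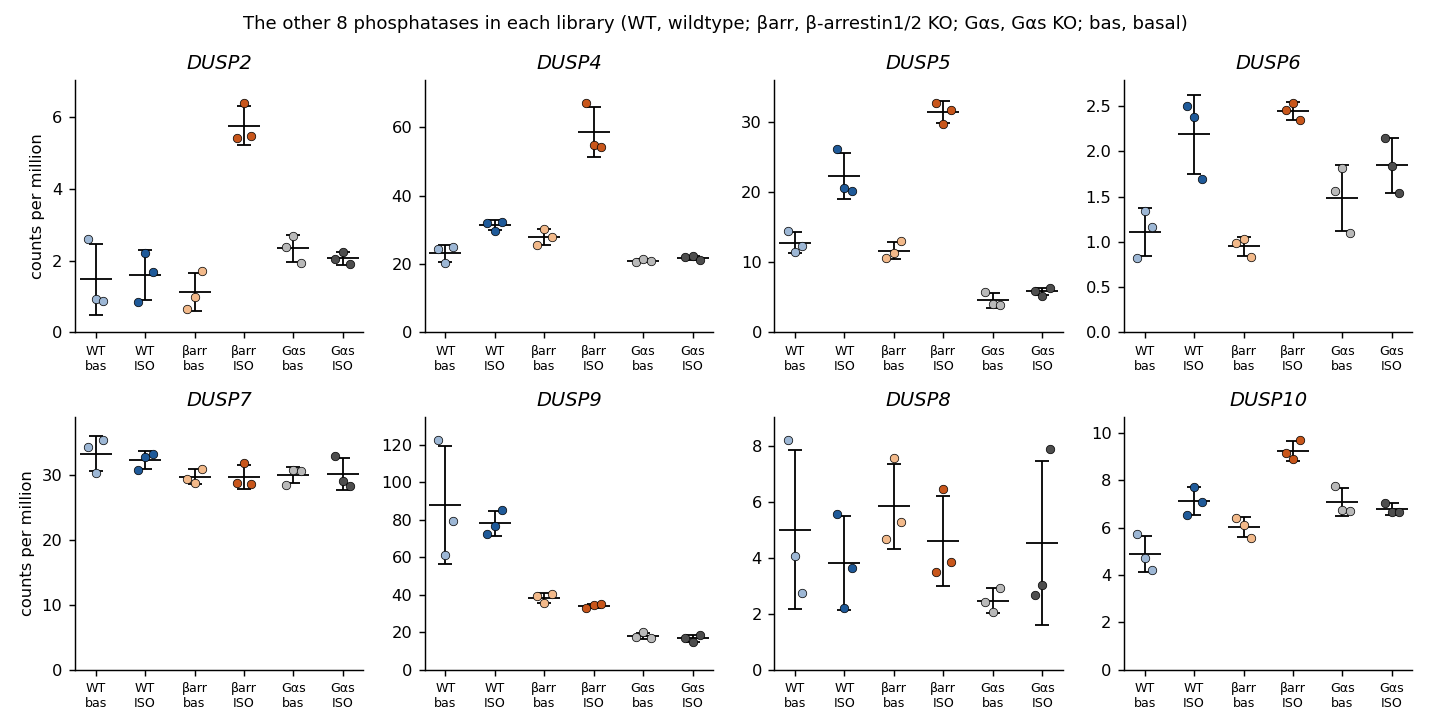
The 8 phosphatases other than DUSP1 in CPM (vertical axes, each from 0 with its own range) in each library by group, with the group mean and 1 SD (n = 3). DUSP4 and DUSP5 are highest in the 3 arrestin KO isoproterenol libraries, DUSP7 lies between 28.4 and 35.4 throughout, and DUSP9 falls from wildtype to arrestin KO to Gαs KO cells.

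In Gαs KO cells 0 of the 9 members were called beside 0% of all tested genes with isoproterenol by edgeR. At an unadjusted p under 0.05 there was 1 member (DUSP5) and 163 of the 15519 tested genes, or 1.05%. DESeq2's Wald test called 9 genes, none of them a member. The basal and isoproterenol libraries overlapped for all 9 members, while 4.9% of all tested genes had no overlap and were higher and 5.58% were lower.

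**Figure D3:**
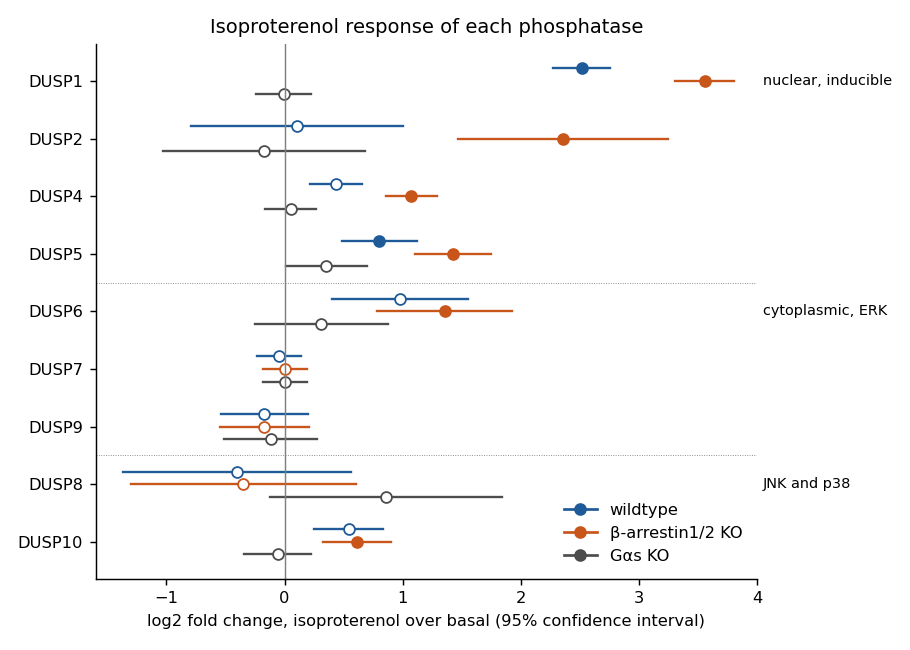
Log2 fold change of isoproterenol over basal (horizontal axis) for each phosphatase (vertical axis, grouped by class) in wildtype, arrestin KO and Gαs KO cells, with 95% confidence intervals as lines; filled points passed the test at an adjusted p under 0.05 and open points did not. Filled points are seen for 2 members in wildtype, 6 in arrestin KO and 0 in Gαs KO cells. These numbers are not a test of a difference between lines, and DUSP1 alone had a called response difference.

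The lines differed at basal too, where 33.6% of all tested genes were called between arrestin KO and wildtype cells and 31.3% between Gαs KO and wildtype cells. Of the 9 members, 2 were called in the first comparison (DUSP1 higher, DUSP9 lower) and 4 in the second (DUSP10 higher and DUSP1, DUSP5 and DUSP9 lower). Against shares of all genes that large, neither count is read as a result about these phosphatases. DUSP1 was higher in arrestin KO cells by a log2 difference of 0.38 (adjusted p = 0.013) and lower in Gαs KO cells by -0.33 (adjusted p = 0.028). The latter was called in 1 of the 6 fits that left out a library. It was lost without wildtype basal replicate 1 (-0.20, adjusted p = 0.084), wildtype basal replicate 3 or any Gαs KO basal library. DUSP5 was lower in Gαs KO cells by -1.49 (standard error 0.16, adjusted p = 3.2e-06), and DUSP10 was higher by 0.53 (adjusted p = 0.0072). Without wildtype basal replicate 1, DUSP4 and DUSP10 were called higher in arrestin KO cells (0.31 and 0.44, adjusted p = 0.024 and 0.016) and DUSP2 higher in Gαs KO cells (1.36, adjusted p = 0.0085). The difference of DUSP2 in arrestin KO cells, not called, turned from -0.40 to 0.31. COL3A1 and COL1A1 are among the 9 markers of other cell types. At basal COL3A1 had a mean of 3.51 CPM in wildtype, 1.36 in arrestin KO and 15.9 in Gαs KO cells. COL1A1 had 34.8, 40.2 and 20.7 CPM in these lines. The 9 markers summed to between 31.5 and 52.6 CPM in wildtype, 41.7 and 43.8 in arrestin KO and 36.0 and 40.7 in Gαs KO basal libraries, and their part in these differences was not tested.

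With isoproterenol, 6 members differed between arrestin KO and wildtype cells (30% of all tested genes were called) and 4 between Gαs KO and wildtype cells (29.9%). In the first comparison DUSP1, DUSP2, DUSP4, DUSP5 and DUSP10 were higher, by log2 differences of 1.42, 1.85, 0.91, 0.49 and 0.38, and DUSP9 was lower. The DUSP5 call was lost without wildtype isoproterenol replicate 2 or 3 or arrestin KO isoproterenol replicate 1 or 3, and the DUSP10 call without any 1 of the 6 libraries. Their log2 differences then ran from 0.42 to 0.62 and from 0.32 to 0.44. In the second comparison DUSP1, DUSP4, DUSP5 and DUSP9 were lower, by log2 differences of -2.86, -0.53, -1.93 and -2.22.

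Levels were compared between genes as TPM, the count per annotated transcript length scaled to the same total in every library. DUSP1 had the highest mean TPM of the members in all 6 groups. In wildtype basal cells it had 74.4 ± 7.56 TPM, which overlapped with DUSP9 at 63.8 ± 15.8 TPM, and DUSP7 followed at 17.8 ± 1.97 TPM. DUSP5 (8.86 ± 0.267), DUSP4 (7.54 ± 0.877) and DUSP10 (3.22 ± 0.225) came next, each without overlap with its neighbor. DUSP8, DUSP2 and DUSP6 lay between 1.04 and 1.92 TPM on average and overlapped. In wildtype isoproterenol libraries DUSP1 had 455 ± 48.6 TPM and DUSP9 61.1 ± 4.21. In arrestin KO isoproterenol libraries DUSP1 had 1267 ± 55.6 TPM, while DUSP9 (28.1 ± 0.730), DUSP5 (24.1, range 23.1 to 25.3) and DUSP4 (20.9 ± 2.73) followed, the last 2 overlapping with each other. In Gαs KO basal cells the order was DUSP1 (65.1 ± 1.60), DUSP7 (17.6 ± 0.696), DUSP9 (14.9 ± 1.08) and DUSP4 (7.43 ± 0.121), and the first 5 places were the same with isoproterenol.

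Summed by class, the nuclear inducible phosphatases went from 92.4 ± 8.62 to 485 ± 46.3 TPM with isoproterenol in wildtype, from 132 ± 7.40 to 1318 ± 52.8 in arrestin KO and from 78.8 ± 1.55 to 78.8 ± 1.05 in Gαs KO cells. Without DUSP1 these sums were 17.99 and 29.2 TPM in wildtype, 20.9 and 51.8 in arrestin KO and 13.6 and 14.4 in Gαs KO cells. The cytoplasmic ERK-specific phosphatases had 82.7 ± 15.2 and 80.9 ± 3.83 TPM in wildtype, 51.3 ± 3.70 and 47.3 ± 1.88 in arrestin KO, and 33.8 ± 1.72 and 32.9 ± 2.49 in Gαs KO cells. DUSP8 and DUSP10 together had between 5.14 and 8.93 TPM on average. The nuclear class thus took 51.5 ± 2.89% of the members' TPM in wildtype basal cells and 84.6 ± 0.740% after isoproterenol, 69.2 ± 1.20% and 95.9 ± 0.110% in arrestin KO cells, and 65.9 ± 0.124% and 66.2 ± 1.73% in Gαs KO cells. These shares are given as a description, without a test.

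**Figure D4:**
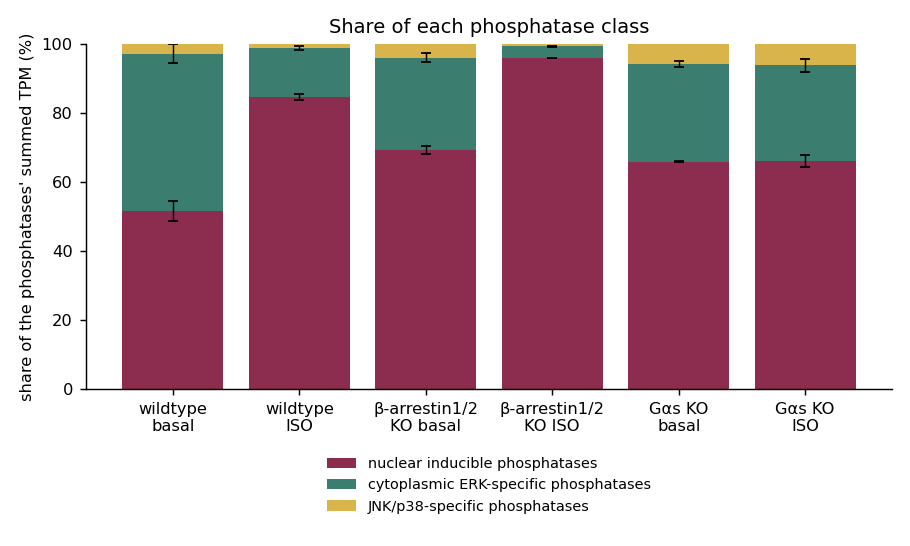
Share of the summed TPM of the 9 phosphatases (vertical axis, %) held by the nuclear inducible, cytoplasmic ERK-specific and JNK and p38-specific classes in each group (horizontal axis; ISO, isoproterenol), as the mean of 3 libraries; error bars show 1 SD at the upper edge of the lower 2 classes. The nuclear share goes from 51.5 to 84.6% in wildtype and from 69.2 to 95.9% in arrestin KO cells, and stays at 65.9 and 66.2% in Gαs KO cells.

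The deposited values are per transcript. DUSP1, DUSP5 and DUSP8 had counts on 1 transcript each. The leading transcript of DUSP4 carried 96.0 to 100% of its level over the 6 groups and that of DUSP7 95.9 to 98.2%. The transcript of DUSP9 that led in wildtype basal libraries carried 75.1 ± 4.19% there. In Gαs KO isoproterenol libraries it carried 47.1 ± 26.0%, and another protein-coding transcript carried 51.3 ± 24.9%. For DUSP6 the assignment varied between replicates, for example 49.0 ± 47.9% on its longest transcript in arrestin KO basal cells, so no isoform change is read from it. Its wildtype basal and isoproterenol libraries, apart in CPM, overlapped in TPM (0.8125 to 1.19 and 0.7134 to 2.245). Those of arrestin KO cells did not overlap in TPM.

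Other genes of the pathway were examined by list. Of 16 atypical dual-specificity phosphatases, 12 were tested and 0 were called with isoproterenol in any line, nor were any of 10 MAP kinases, 7 MAP kinase kinases or 7 tested of 8 other MAP kinase phosphatases. Of 6 ERK feedback inhibitors, SPRY2 was called higher in wildtype (log2 fold change 0.47, adjusted p = 0.012) and arrestin KO cells (0.69, adjusted p = 0.00015), and SPRY4 in arrestin KO cells (0.98, adjusted p = 0.028). Of 7 ERK-driven transcripts, FOS was called in wildtype (3.25) and arrestin KO cells (3.56), and IER3 in wildtype cells (0.97). The FOS response did not pass the test of a difference between arrestin KO and wildtype cells (0.31, interval -0.19 to 0.80, adjusted p = 1). That between Gαs KO and wildtype did (-2.76, adjusted p = 6.4e-05).

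Over the 18 libraries, the protein-coding genes whose log2 CPM followed DUSP1 most closely were BTG2 (Pearson r = 0.994), TOB1 (0.992) and JUNB (0.989). For DUSP4 they were KLF4 (0.972), TOB1 (0.962) and ZFP36L1 (0.960), for DUSP5 PCK1 (0.979), RHOB (0.977) and SPRY2 (0.969), and for DUSP10 SOCS3 (0.888), PLK2 (0.868) and PPP1R15A (0.828). DUSP2 was followed by PPP1R15A (0.832), PLK2 (0.788) and AC011511.4 (0.770), and DUSP6 by PPP1R15B (0.870), TIPARP (0.868) and OTUD1 (0.864). DUSP9 was followed by ZP3, RIMS4 and TESC (0.984 each). The values for DUSP7 (CISH, 0.802, BEST1, 0.794, and AC025283.3, 0.799) and DUSP8 (PROCA1, 0.859, BTNL3, 0.804, and RDH12, 0.757) were lower than that. Among the members, DUSP1 and DUSP4 (0.937) and DUSP1 and DUSP5 (0.888) were the closest pairs. The libraries share groups, lines and depth, and these coefficients are descriptions without a test.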

How the data were processed

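RNA-Seq of poly(A)-selected RNA from 18 libraries (6 groups of 3 biological replicates) was used. The values the authors deposited are expected counts of 150-bp read pairs on each transcript, estimated with Salmon 1.7.0 without normalization for depth or length. The build in the submitters' processing notes is GRCh38, and the annotation used in the quantification is not given in the sources used here. Of 184844 transcripts, 161798 matched GENCODE release 29 by identifier without version and were summed to 34255 genes and rounded. Between 92.9 and 93.8% of the counts of a library were kept, and 0 columns of per-sample values were left unused. Pseudogene copies and overlapping genes can share reads.

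Counts were tested in R 4.3.3 with edgeR 4.0.16 (TMM scaling, filterByExpr by group, quasi-likelihood F test, a coefficient per group over all 18 libraries) and adjusted over all 15519 tested genes. CPM are TMM-scaled. The standard error is the log2 fold change divided by the square root of F. Responses were compared between lines as interactions. DESeq2 1.42.0 served as an alternative. The authors used DESeq2 too, in a version not given in the sources used here. Further alternatives were other scalings, filters, GC and length offsets (lowess span 0.3), protein-coding transcripts only, transcript length offsets, only the groups compared, a replicate block and single libraries left out. Tables and plots were made with Python 3.11.15, pandas 2.3.3 and matplotlib 3.10.9. A two-sided exact permutation test of 3 against 3 libraries cannot go below 0.1 and was not used.

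In simulated data with 200 changed genes in the wildtype response, edgeR recovered 93% of the 3-fold and 44% of the 1.5-fold changes among 15269 genes, with 3 unchanged genes called. Changed genes were drawn from those with a mean above 2 CPM, so the rates do not cover lower genes such as DUSP6. Counts of 2 libraries of a group never agreed within sampling noise, so none was treated as a duplicate. Same-numbered libraries of different groups did not deviate together (correlations from -0.0993 to 0.0766), and libraries were treated as unpaired.

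The members, the gene lists and the rules for naming genes were chosen with earlier results of these data known. Named were all members, of each other pathway list up to 4 called genes with the smallest adjusted p, the targeted genes, the cell type markers, and the 3 protein-coding genes whose log2 CPM (prior count 2) followed each member best. No p-value was adjusted over the members alone. The level of the transfected gene and 1 cell type marker are not reported here.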

Additional observations from a re-analysis of the deposited data

Results flagged for a closer look

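The isoproterenol response of DUSP1 differed between cell lines by a test of the difference itself. It was larger in arrestin KO than in wildtype cells by a log2 difference of 1.04 and smaller in Gαs KO than in wildtype cells by a log2 difference of -2.52 (edgeR's quasi-likelihood test, adjusted p = 0.0057 and 1.8e-07). All 3 arrestin KO isoproterenol libraries lay above all 3 of wildtype, and all 3 of Gαs KO below them. Such a separation of levels was seen for 27.8% of all tested genes (higher in arrestin KO) and 28.8% (lower in Gαs KO). The larger response in arrestin KO cells was not called when only the groups compared were fitted.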

How the results depend on the processing

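Fits other than the reported one gave the log2 differences of the 9 members in 9 comparisons the same direction wherever a call was involved, and none was reversed. Of these values, 778 kept their side of the threshold, 14 came to pass it and 18 ceased to pass it, and with single libraries left out 553, 10 and 31 did. The number of members called moved by more than 1.5 times in the following fits. For the response difference between arrestin KO and wildtype it was 3 with GC and length offsets (DUSP1, DUSP2 and DUSP4), 2 with these offsets and the replicate block, 3 with DESeq2's Wald test and 0 with only the groups compared, in place of 1. In the fits with only the groups compared it was also 1 in place of 2 for the wildtype response, 1 in place of 2 for the basal difference of arrestin KO and 2 in place of 4 for that of Gαs KO. For the basal difference of arrestin KO it was 4 with transcript length offsets. The cause was not tested.

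With single libraries left out, 1 to 4 members were called in the wildtype response, 3 to 4 in the arrestin KO response in place of 6, 0 in the Gαs KO response, 1 to 2 and 1 in the response differences of arrestin KO and Gαs KO, 2 to 4 and 3 to 4 in their basal differences, and 4 to 5 and 4 in their differences under isoproterenol. With the replicate block, 2, 6 and 0 members were called in the responses of wildtype, arrestin KO and Gαs KO cells, 1 in each response difference, and 2 and 4 at basal. The block ended 1 call, the higher DUSP10 in arrestin KO cells under isoproterenol (0.37, adjusted p = 0.052).

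Over all tested genes, 72 were called in the wildtype response, with 13 (only the groups compared) to 226 (GC and length offsets) in other fits. For the arrestin KO response there were 175, with 157 to 1161, and for the Gαs KO response 0, with 0 to 9. For the response differences there were 26 (10 to 123, and 1302 without wildtype basal replicate 1) and 25 (15 to 68). The basal counts were 5208 (1501 to 7497) and 4864 (1587 to 7274), and under isoproterenol 4653 (4098 to 7221) and 4646 (4070 to 7454). Summing protein-coding transcripts alone changed 1 of 18 class sums by more than its SD, that of DUSP8 and DUSP10 in Gαs KO basal cells, to 5.79 TPM. DUSP2 and DUSP6 had the fewest counts, 12 to 121 per library, and how far depth limits their comparisons was not tested.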
